A study of Mus musculus with 9 samples.

Results

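The oligoadenylate synthetase (OAS) family was followed by RNA-seq in 9 libraries made from mouse dendritic cells that had been grown out of bone marrow in culture (BMDC). The 6 members were Oas1a, Oas1g, Oas2, Oas3, Oasl1 and Oasl2. They were taken by gene symbol from the 38887 rows of the count table, using the row with most counts for each symbol, and each symbol had exactly 1 row. The libraries came from untreated cells (3), from cells given lysophosphatidic acid (LPA) for 2 h (3) and from cells given LPA for 6 h (3); LPA is a lipid mediator that signals through G protein-coupled receptors. The question put by the study's title is whether LPA, there made by ovarian tumours, blunts the type I interferon response. The labels state neither the LPA dose, a vehicle or the mouse strain, nor when untreated cells were collected, nor whether replicates came from separate animals or cultures. P-values therefore measure the spread between these libraries, which may be technical.

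OAS proteins sense double-stranded RNA in the cytoplasm. Once bound to it, the enzymatically active members join ATP into short chains of adenosine linked from the 2′ to the 5′ position, called 2-5A, a second messenger of the antiviral response. The genes are classic interferon-stimulated genes: type I interferon acts through the receptor chains Ifnar1 and Ifnar2 and a transcription factor complex that includes Stat2 and Irf9 and binds interferon-stimulated response elements in their promoters. Many resting cells hold a low level of these transcripts through tonic interferon signalling.

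The members lie in 2 places on mouse chromosome 5 (GRCm38, GENCODE gene models). Oas2 (120730333 to 120749853), Oas3 (120753098 to 120777661), Oas1g (120876142 to 120887613) and Oas1a (120896256 to 120907521) are on the minus strand of one cluster, which also holds the other Oas1 copies. Oasl2 (114896936 to 114912234) and Oasl1 (114923240 to 114937915) are side by side on the plus strand elsewhere on the chromosome. All 6 are annotated as protein coding, and each value below rests on the estimated counts deposited for the whole gene.

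Promoter sequences are shown because the members moved together and because the response element named above is the textbook route of their induction. RefSeq promoters of GRCm38.p6, each 250 bases before to 50 bases after the annotated start, were matched for 5 of the 6 members (all but Oas2). Both strands were searched for the core of the interferon-stimulated response element, taken as GAAA, any pair of bases and GAAA again. It was present in 3 of the 5, and in 3.44% of the 32851 promoters of the same table. The stretches around the matches are printed 5′ to 3′ on the gene's strand, with the matched bases in capitals.
Oas1a, chr5:120907485-120907590, minus strand: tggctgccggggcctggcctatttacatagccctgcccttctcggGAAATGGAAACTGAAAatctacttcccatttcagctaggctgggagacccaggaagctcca
Oas1g, chr5:120887571-120887676, minus strand: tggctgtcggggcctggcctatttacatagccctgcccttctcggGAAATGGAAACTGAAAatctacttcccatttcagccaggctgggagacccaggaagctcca
Oas3, chr5:120777680-120777779, minus strand: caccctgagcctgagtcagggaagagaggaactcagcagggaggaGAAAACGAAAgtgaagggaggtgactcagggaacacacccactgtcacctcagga

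In Oas1a and Oas1g the core occurred as a pair of overlapping matches on the gene's strand, joined into 16 bases, and the 2 printed stretches of 106 bases differed at 2 positions. The joined match ended 5 bases before the annotated start in Oas1a and 3 bases before it in Oas1g, while the single match of Oas3 ended 66 bases before the start. The core of the gamma-activated site, TTCNNNGAA, was found in the Oas1a window alone among the 5, against 8.3% of all promoters. The windows of Oasl1 and Oasl2 held neither set of letters. A match is a description of the letters only.

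Library totals ran from 29628817 to 84596899 counts, and 14363 genes passed the filter on low counts, all 6 members among them. Levels are given as CPM, counts normalised to library size with trimmed-mean (TMM) scaling. One library stood apart. LPA 2 h replicate 2, the deepest of the 9, differed from the other LPA 2 h libraries by a chi-square of 21.8 and 31.1 per degree of freedom over genes, against 7.05 to 13.6 for the other pairs of libraries within a group. Several 2 h changes are therefore also given without it. For the same relative spread between libraries, this chi-square grows with depth. The dendritic cell markers Itgax and Cd74 were abundant. In untreated, 2 h and 6 h cells Itgax averaged 1361, 1318 and 1072 CPM, and Cd74 3597, 3645 and 3252 CPM. Other such markers varied. In untreated cells H2-Ab1 averaged 767.5 CPM and Ccr7 338.1 CPM, but Dpp4 25.04, Zbtb46 18.03, Batf3 14.02 and Flt3 13.32 CPM. Macrophage markers ran from 32.62 CPM (Fcgr1) to 2251 CPM (Csf1r) in untreated cells. The share of dendritic cells in the cultures was not tested.

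All 6 members fell after 6 h of LPA, to between 13.1% and 32.6% of the level in untreated cells. Together they summed to 646.0 ± 22.9 CPM in untreated cells, 422.5 ± 74.3 CPM after 2 h and 127.9 ± 8.01 CPM after 6 h (SD, n = 3 each). Every 6 h library lay below every untreated and every 2 h library for each member. The 2 h level lay between the others for 5 members, while Oasl1 had not changed detectably by 2 h. In a bulk sample, fewer cells that express these genes and less RNA per cell cannot be told apart.

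**Figure D1:**
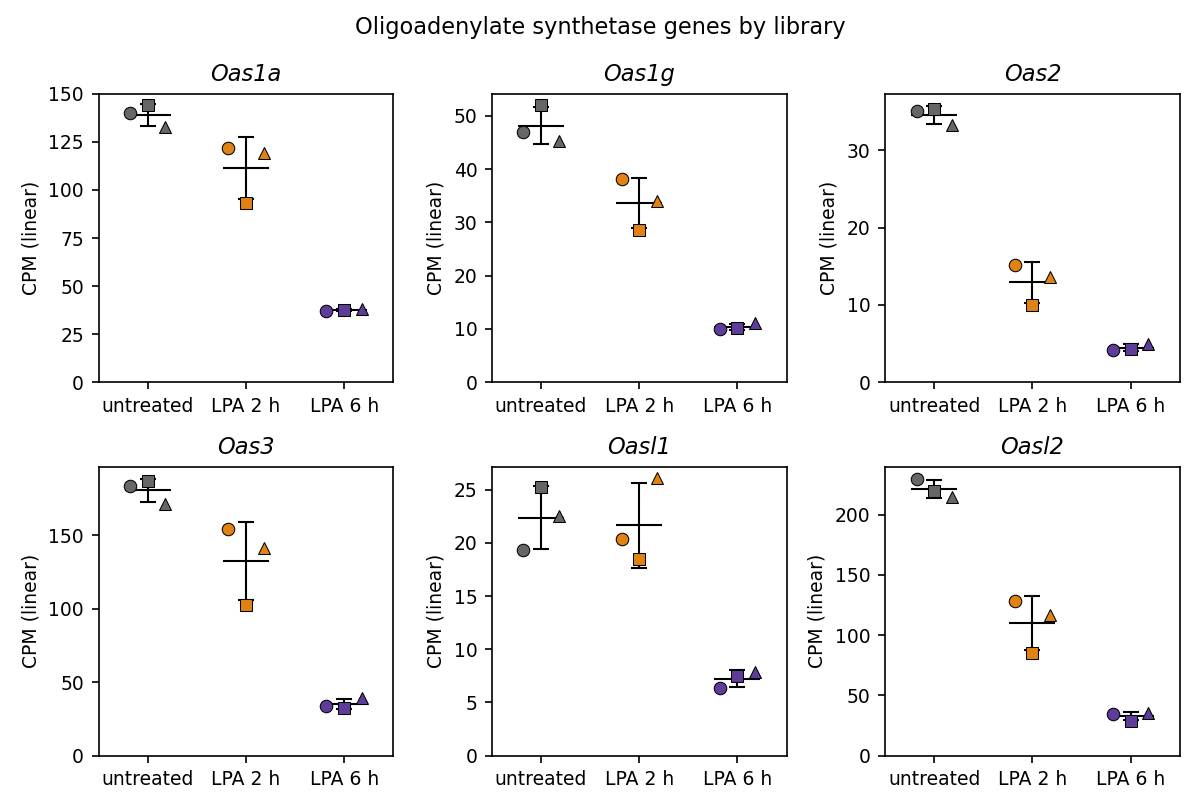
Level of each synthetase gene (CPM, linear axis from 0) in the 9 libraries by group: circles, squares and triangles are replicates 1, 2 and 3, horizontal lines are means and bars are 1 SD (n = 3). In every panel the 3 libraries of LPA 6 h sit below all others, and the square, LPA 2 h replicate 2, is the lowest 2 h point.

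Oas1a and Oas1g encode the small form of the enzyme, which has a single synthetase domain; both are active copies of the mouse Oas1 gene, which exists once in humans. Oas1a had 139.8, 144.4 and 133.0 CPM in untreated libraries, 122.1, 93.1 and 119.2 CPM in LPA 2 h libraries and 36.9, 37.6 and 38.3 CPM in LPA 6 h libraries. The 3 groups did not overlap, and the 6 h libraries lay closest together. Relative to untreated cells the log2 change of Oas1a was -0.32 ± 0.086 (SE) at 2 h (adjusted p = 0.013, edgeR quasi-likelihood test, Benjamini-Hochberg over all genes) and -1.89 ± 0.091 at 6 h (adjusted p = 1.14e-07). Untreated libraries held 47.0, 52.1 and 45.4 CPM of Oas1g, those of LPA 2 h 38.1, 28.7 and 34.1 CPM, and those of LPA 6 h 9.99, 10.2 and 11.1 CPM. Its groups did not overlap either. The log2 change of Oas1g was -0.52 ± 0.093 at 2 h (adjusted p = 0.00105) and -2.21 ± 0.102 at 6 h (adjusted p = 5.62e-08).

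These 2 copies are near-identical in places: 57.6% of the 50-base windows of the Oas1a transcript also occur in Oas1g transcripts. RSEM divides such reads between genes by estimate, so the separate values of Oas1a and Oas1g are uncertain. With the reads of all Oas1 copies summed into 1 row, the log2 change was -0.38 at 2 h (adjusted p = 0.00575) and -1.92 at 6 h (adjusted p = 1.11e-07). Oas2, Oasl1 and Oasl2 shared no such window with any other gene, and Oas3 shared 0.421% of its windows.

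Oas2, the medium form with a pair of synthetase domains, had the largest estimated fall of the 6 in both comparisons with untreated cells, although at 6 h its standard error overlapped that of Oasl2. Its level was 35.1, 35.4 and 33.3 CPM in untreated libraries, 15.2, 10.04 and 13.5 CPM in LPA 2 h libraries and 4.17, 4.27 and 4.999 CPM in LPA 6 h libraries. The 3 groups were far apart, and the untreated libraries hardly differed from each other. Oas2 retained 37.2% of the untreated level at 2 h (log2 change -1.43 ± 0.128, adjusted p = 1.42e-05) and 13.1% at 6 h (-2.94 ± 0.143, adjusted p = 2.02e-07), a 7.66-fold fall. By fold change it ranked 93rd from the bottom of the 14363 genes at 2 h and 43rd at 6 h.

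Oas3, the large form with further repeated domains and a sensor of long double-stranded RNA, was among the most counted members. It had 183.5, 186.9 and 171.5 CPM in the untreated group, 154.1, 102.9 and 141.1 CPM in the LPA 2 h group and 33.8, 32.6 and 39.3 CPM in the LPA 6 h group. The groups did not overlap, and the 2 h libraries were the most spread, with an SD of 26.6 CPM. The 2 h change of Oas3 passed the threshold by a small margin (log2 -0.45 ± 0.139, adjusted p = 0.0347). At 6 h Oas3 was 5.12-fold lower (log2 -2.36 ± 0.149, adjusted p = 4.35e-06).

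The OAS-like genes carry ubiquitin-like domains behind the synthetase domain. Oasl1 lacks enzyme activity and is known in mice as a brake on Irf7 translation. Its level was 19.4, 25.25 and 22.5 CPM in untreated cells, 20.3, 18.4 and 26.1 CPM after LPA for 2 h and 6.37, 7.44 and 7.89 CPM after LPA for 6 h. The untreated and 2 h libraries overlapped, and the 6 h libraries were all below them. The log2 change of Oasl1 was -0.06 ± 0.137 at 2 h (adjusted p = 0.782) and -1.62 ± 0.149 at 6 h (adjusted p = 1.39e-05). Oasl2, which is an active synthetase in mice, had 229.5, 219.6 and 214.4 CPM in untreated cells, 128.4, 85.1 and 117.0 CPM after LPA for 2 h and 34.6, 29.1 and 35.2 CPM after LPA for 6 h. Its groups were well separated. Oasl2 retained 49.7% of the untreated level at 2 h (log2 change -1.01 ± 0.142, adjusted p = 0.00075) and 14.9% at 6 h (-2.75 ± 0.153, adjusted p = 2.37e-06).

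Counted over the family, 5 of 6 members were called lower at 2 h against untreated cells and 0 higher, where 19.2% of all genes tested were called lower and 19.3% higher. The same 5 did not overlap between groups, a pattern that 24% of all genes showed in the lower direction. At 6 h against untreated cells 6 of 6 were called lower and none overlapped, against 25.7% of all genes called lower, 26.4% called higher and 31% lower without overlap. All 6 members were also at least 2-fold lower at 6 h, as were 4.48% of genes, and 4 of them (Oas1g, Oas2, Oas3 and Oasl2) were at least 4-fold lower, as were 0.926%. The median log2 change of the 6 was -0.48 at 2 h and -2.28 at 6 h, beside -0.000988 and 0.0073 over all genes tested. Both comparisons use the same untreated libraries.

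Changes between 2 h and 6 h covered a narrower range than those at 2 h. Levels at 6 h against 2 h gave log2 changes of -1.57 ± 0.09 for Oas1a, -1.68 ± 0.101 for Oas1g, -1.51 ± 0.144 for Oas2, -1.91 ± 0.147 for Oas3, -1.56 ± 0.148 for Oasl1 and -1.74 ± 0.149 for Oasl2. All 6 were called lower, with adjusted p from 5.21e-06 to 7.36e-05 by the same test, where 24.4% of all genes were. None of the 6 overlapped between the 2 times (29.7% of genes were lower without overlap), and their median was -1.62, beside -0.00635 over all genes. The range of these changes was -1.91 to -1.51, beside -1.43 to -0.06 for the 2 h changes against untreated cells.

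**Figure D2:**
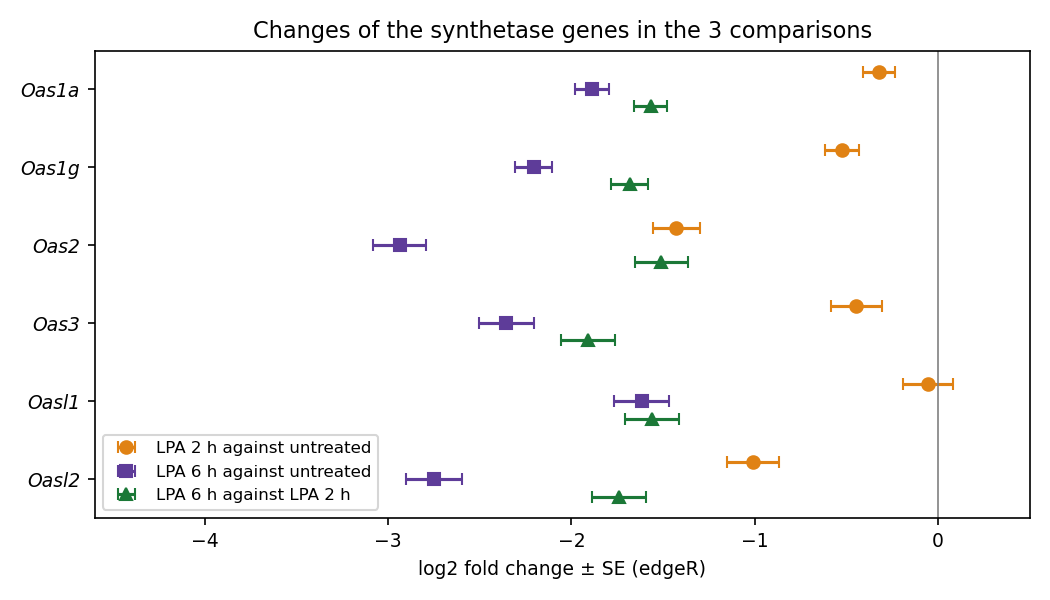
Log2 fold change (edgeR) with its standard error for each synthetase gene in the 3 comparisons; the grey line marks no change. Changes at 2 h against untreated cells (orange circles) run from -1.43 for Oas2 to -0.06 for Oasl1, while those at 6 h against 2 h (green triangles) lie between -1.91 and -1.51.

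LPA 2 h replicate 2 was the lowest 2 h library for all 6 members, at 0.693 to 0.795 of the mean of the other 2 h libraries. Without it the 2 h changes against untreated cells were smaller in size. Those of Oas1a and Oas3 shrank by more than 1.5 times, to -0.21 (adjusted p = 0.00332) and -0.29 (adjusted p = 0.00755), and that of Oasl1 turned to 0.05 (adjusted p = 0.814). Oas1g, Oas2 and Oasl2 kept log2 changes of -0.42, -1.26 and -0.85, all called. The 6 h changes against 2 h grew slightly without this library, to between -2.07 and -1.67. The 2 h calls of Oas3 and Oas1a were not stable: Oas3 was not called without any 1 of untreated replicates 1, 2 and 3, LPA 2 h replicate 3 or LPA 6 h replicate 1 (adjusted p from 0.0528 to 0.0905), and Oas1a was not called without untreated replicate 2 (adjusted p = 0.0524).

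Ratios of members within a library do not depend on how libraries are scaled. Of 7 pairs compared, Oas2 over Oas3 had the smallest SD in the LPA 2 h and LPA 6 h groups. Its log2 ratio of counts was -2.38, -2.40 and -2.37 in untreated libraries, -3.34, -3.36 and -3.38 in LPA 2 h libraries and -3.02, -2.93 and -2.97 in LPA 6 h libraries. The ratio was lower by 0.98 at 2 h and by 0.59 at 6 h than in untreated cells, and higher at 6 h than at 2 h by 0.38, with no overlap of groups in any of the 3. LPA 2 h replicate 2 did not stand apart in this ratio. Oasl2 over Oasl1 had log2 ratios of 3.57, 3.12 and 3.25 in untreated libraries, 2.66, 2.21 and 2.16 after LPA for 2 h and 2.44, 1.97 and 2.16 after LPA for 6 h. It was lower at both times than in untreated cells without overlap, by 0.97 and 1.13, and overlapped between the 2 times (mean difference -0.15). Exact two-sided permutation tests gave p = 0.1 for each of the differences without overlap, the smallest p that 3 against 3 libraries allow, and p = 0.5 for Oasl2 over Oasl1 between 6 h and 2 h.

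Set against Oas1a, the pattern of the other members was uneven. The log2 ratio of Oas2 to Oas1a averaged -2.01 in untreated cells, -3.12 at 2 h and -3.07 at 6 h. Oasl2 over Oas1a averaged 0.67 in untreated cells, -0.03 at 2 h and -0.19 at 6 h. Oas3 over Oas1a averaged 0.38 in untreated cells, 0.24 at 2 h and -0.10 at 6 h. Each of these lay below the untreated libraries without overlap at both times (exact two-sided permutation p = 0.1 each). The ratio of Oasl1 to Oas1a overlapped between groups in all 3 comparisons, and its means were -2.64 in untreated cells, -2.37 at 2 h and -2.38 at 6 h. Oas1g over Oas1a was lower by 0.20 at 2 h and by 0.32 at 6 h than in untreated cells, subject to the shared reads of those copies.

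**Figure D3:**
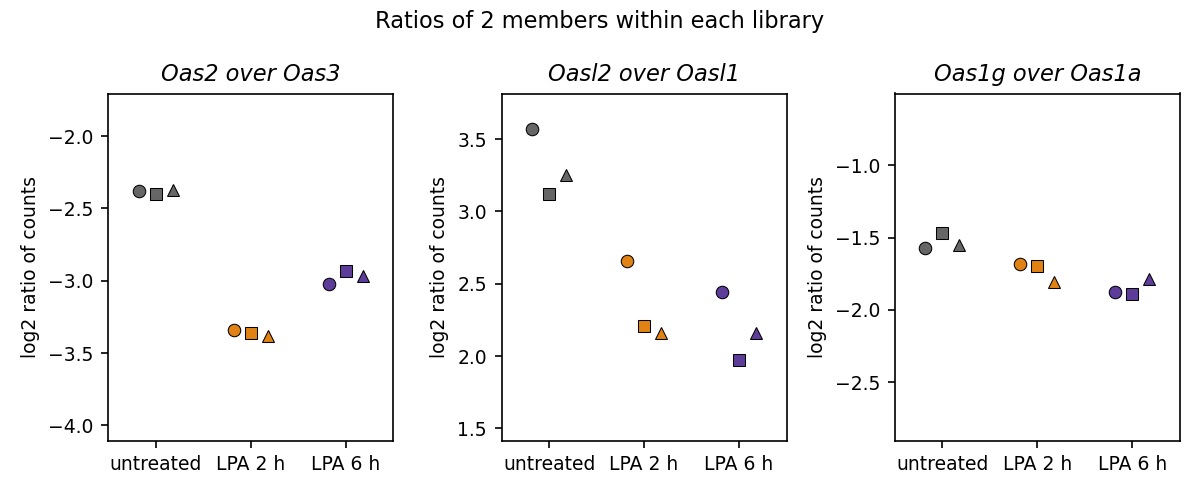
Log2 ratio of the counts of 2 members within each library, by group, for Oas2 over Oas3, Oasl2 over Oasl1 and Oas1g over Oas1a; circles, squares and triangles are replicates 1, 2 and 3, and each vertical axis spans the same log2 range around its own mean. Oas2 over Oas3 averages -2.38 in untreated cells, -3.36 at 2 h and -2.98 at 6 h.

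As shares of the summed CPM of the 6, Oasl2 supplied a mean of 34.2% in untreated cells, 26.0% at 2 h and 25.7% at 6 h. Oas1a supplied 21.5% in untreated cells, 26.5% at 2 h and 29.4% at 6 h. The share of Oas2 was 5.36% in untreated cells, 3.05% at 2 h and 3.50% at 6 h.

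Levels were compared between genes per kilobase of exon. Their order was the same in all 3 groups: Oas1a first, then Oasl2, Oas3, Oas1g, Oasl1 and Oas2. In untreated cells Oas1a averaged 73.8 CPM per kilobase, Oasl2 57.0, Oas3 34.6, Oas1g 20.6, Oasl1 8.58 and Oas2 7.78 CPM per kilobase. Oasl1 and Oas2 did not differ beyond their spread there, with ranges of 7.42 to 9.68 and 7.48 to 7.96 CPM per kilobase. At 2 h Oas1a averaged 59.1 and Oas2 2.91 CPM per kilobase, and Oasl2 and Oas3 overlapped (21.9 to 33.1 and 19.7 to 29.5 CPM per kilobase). At 6 h Oas1a averaged 19.9 and Oas2 1.01 CPM per kilobase, and the ranges of Oasl2 and Oas3 met, at 7.50 to 9.07 and 6.24 to 7.51 CPM per kilobase. With the mean length of each row's transcripts in place of the exon union, Oasl2 ranked above Oas1a in all 3 groups (172 and 73.8 CPM per kilobase in untreated cells), so the first place depends on the transcript length assumed. The overlaps depend on it too. With mean transcript lengths untreated Oasl1 (16.3 to 21.3 CPM per kilobase) lay above untreated Oas2 (12.1 to 12.8), and Oasl2 lay above Oas3 at 2 h (66.0 to 99.6 and 39.7 to 59.5 CPM per kilobase) and at 6 h (22.6 to 27.3 and 12.6 to 15.2 CPM per kilobase).

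The other Oas1 copies had fewer counts than any member, although per kilobase of exon Oas1c (1.21 CPM) and Oas2 (1.01 CPM) were at similar levels at 6 h. Oas1b, a flavivirus resistance gene annotated here as a polymorphic pseudogene, averaged 6.51 ± 0.131 CPM in untreated cells, 3.25 ± 0.663 CPM at 2 h and 1.77 ± 0.308 CPM at 6 h (SD, n = 3 each). It fell, with log2 changes of -1.02 ± 0.146 at 2 h (adjusted p = 1.6e-04) and -1.85 ± 0.157 at 6 h (adjusted p = 1.65e-06). Oas1c averaged 5.71 ± 0.397 CPM in untreated cells, 5.48 ± 0.929 CPM at 2 h and 2.90 ± 0.385 CPM at 6 h. Its log2 change was -0.07 ± 0.133 at 2 h (adjusted p = 0.737; 0.08 without LPA 2 h replicate 2, adjusted p = 0.641), so that like Oasl1 it was not called, and -0.97 ± 0.141 at 6 h (adjusted p = 1.1e-04). Oas1h was also called lower at both times, from 2 to 24 counts per library. Oas1d, Oas1e and Oas1f did not pass the filter on low counts.

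The other genes of the 2-5A pathway did not fall with the synthetases as a group. Of 5 analysed, 1 was higher and 2 lower at 2 h against untreated cells, with a median log2 change of 0.06, and 0 were higher and 2 lower at 6 h, with a median of -0.04. For this and the next lists, the shares called over all genes tested were 19.2% lower and 19.3% higher at 2 h, and 25.7% lower and 26.4% higher at 6 h. Akap7, whose phosphodiesterase domain can degrade 2-5A, rose at 2 h (log2 0.25 ± 0.084, adjusted p = 0.0321). Its log2 change was 0.06 at 6 h (adjusted p = 0.559). Pde12, a 2-5A phosphodiesterase, and Enpp1, which can cleave 2-5A, had changes between -0.04 and 0.13 that were not called. Without LPA 2 h replicate 2, Enpp1 had a log2 change of 0.17 at 2 h (adjusted p = 0.479).

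Abce1, best known as a ribosome recycling factor, averaged 105.9 CPM in untreated cells, 92.4 CPM at 2 h and 81.4 CPM at 6 h. It fell, with log2 changes of -0.20 ± 0.054 at 2 h (adjusted p = 0.0114) and -0.38 ± 0.054 at 6 h (adjusted p = 9.1e-05). Cnp, whose product hydrolyses cyclic nucleotides with a 2′,3′ bond, fell likewise, with -0.32 ± 0.057 at 2 h (adjusted p = 8.83e-04) and -0.47 ± 0.058 at 6 h (adjusted p = 3.24e-05). The largest change in this list was thus smaller than the smallest change of a synthetase at 6 h.

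Other genes for sensing double-stranded RNA fell alongside the synthetases with exceptions. Of 11 tested, 8 were lower and 2 higher at 2 h (median log2 change -0.34), and 8 were lower and 3 higher at 6 h (median -1.27). Dhx58, which encodes the RIG-I-like receptor LGP2, changed by a log2 of -0.33 ± 0.087 at 2 h (adjusted p = 0.0108; -0.22 without LPA 2 h replicate 2, adjusted p = 0.00515) and -1.77 ± 0.092 at 6 h (adjusted p = 1.41e-07). Ifih1, which encodes the sensor MDA5, changed by -0.63 ± 0.102 at 2 h (adjusted p = 9.02e-04) and -1.53 ± 0.106 at 6 h (adjusted p = 2.02e-06). Eif2ak2, which encodes the kinase PKR, changed by -0.42 ± 0.077 at 2 h (adjusted p = 0.00105) and -1.27 ± 0.079 at 6 h (adjusted p = 3.08e-07). The largest falls of this list at 6 h were those of Ddx60 (log2 -2.65 ± 0.222), Ddx58 (-2.45 ± 0.150) and Zbp1 (-2.36 ± 0.167). These were as large as the falls of several synthetases. Like them, the 3 that rose at 6 h, Mavs, Trim25 and Zcchc3, are named after their values were seen. Mavs, Trim25 and Zcchc3 are taken next. They encode the adaptor and cofactors of the RIG-I-like receptors, and rose by 0.25, 0.52 and 0.50 on the log2 scale.

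Among 11 genes for the interferon receptor, its kinases, transcription factors and feedback inhibitors, 7 were lower and 1 higher at 2 h (median log2 change -0.30) and 8 were lower and 1 higher at 6 h (median -0.34). Ifnar1 did not change detectably, with 172.5 ± 1.18 CPM in untreated cells, 175.6 ± 4.21 CPM at 2 h and 171.4 ± 3.37 CPM at 6 h (SD, n = 3 each, edgeR adjusted p = 0.637 and 0.862). Its log2 change at 2 h was 0.03, and 0.04 without LPA 2 h replicate 2 (adjusted p = 0.47). The 1 gene called higher at each time was the other receptor chain, Ifnar2, named after its values were seen. Ifnar2 had log2 changes of 0.30 ± 0.051 at 2 h (adjusted p = 5.94e-04) and 0.28 ± 0.051 at 6 h (adjusted p = 5.76e-04). Stat2 and Irf9, which encode subunits of the interferon-activated complex, fell at both times. The log2 changes at 2 h and at 6 h were -0.78 ± 0.055 and -1.24 ± 0.056 for Stat2 and -0.37 ± 0.066 and -1.29 ± 0.068 for Irf9, with adjusted p from 2.01e-08 to 8.18e-04. Usp18, a negative regulator of the receptor and itself interferon-induced, was lower at both times, with log2 changes of -1.21 ± 0.079 at 2 h (adjusted p = 4.58e-07) and -1.997 ± 0.082 at 6 h (adjusted p = 1.42e-08). Irf7 had a log2 change of -0.29 ± 0.112 at 2 h (adjusted p = 0.0681; -0.17 without LPA 2 h replicate 2) and fell at 6 h, with -1.39 ± 0.117 (adjusted p = 9.01e-06).

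Genes that flank the synthetases on chromosome 5 did not share their fall as a group at 6 h. At 2 h more of them were lower than higher, while 19.2% of all genes tested were called lower and 19.3% higher. Of 22 tested genes within 250 kb of either cluster, 8 were lower and 1 higher at 2 h against untreated cells (median log2 change -0.14), and 7 were lower and 9 higher at 6 h (median 0.08), with values at 6 h from -1.01 to 1.02. Beyond the Oas2 end of the large cluster, the nearest tested gene was Rasal1, a regulator of Ras signalling, with a log2 change of -0.74 ± 0.271 at 2 h (adjusted p = 0.0464; 0.0576 without LPA 2 h replicate 2) and -0.86 ± 0.283 at 6 h (adjusted p = 0.0227), at means near 1 CPM or below. Beyond the Oas1a end was Rph3a, which acts in vesicle release. Its log2 change was -0.04 ± 0.315 at 2 h (adjusted p = 0.928; -0.62 without LPA 2 h replicate 2, adjusted p = 0.0968) and 1.02 ± 0.299 at 6 h (adjusted p = 0.0128), also at means below 1 CPM. Next to Oasl1, 2210016L21Rik averaged 16.0 CPM in untreated cells, 12.4 CPM at 2 h and 17.1 CPM at 6 h. It was lower at 2 h (log2 -0.36 ± 0.062, adjusted p = 6.18e-04), with 0.10 ± 0.062 at 6 h (adjusted p = 0.192). Before Oasl2, 1500011B03Rik changed by 0.18 ± 0.071 at 2 h (adjusted p = 0.0566) and rose by 0.19 ± 0.072 at 6 h (adjusted p = 0.0429). Strand was not kept in these libraries, so an antisense gene's reads can be counted for its partner. Gm13822, which overlaps the start of Oasl1 on the other strand, had 19 counts over all libraries. Gm43068, which lies within Oas2 on the other strand, had no row, so its reads could not be checked.

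**Figure D4:**
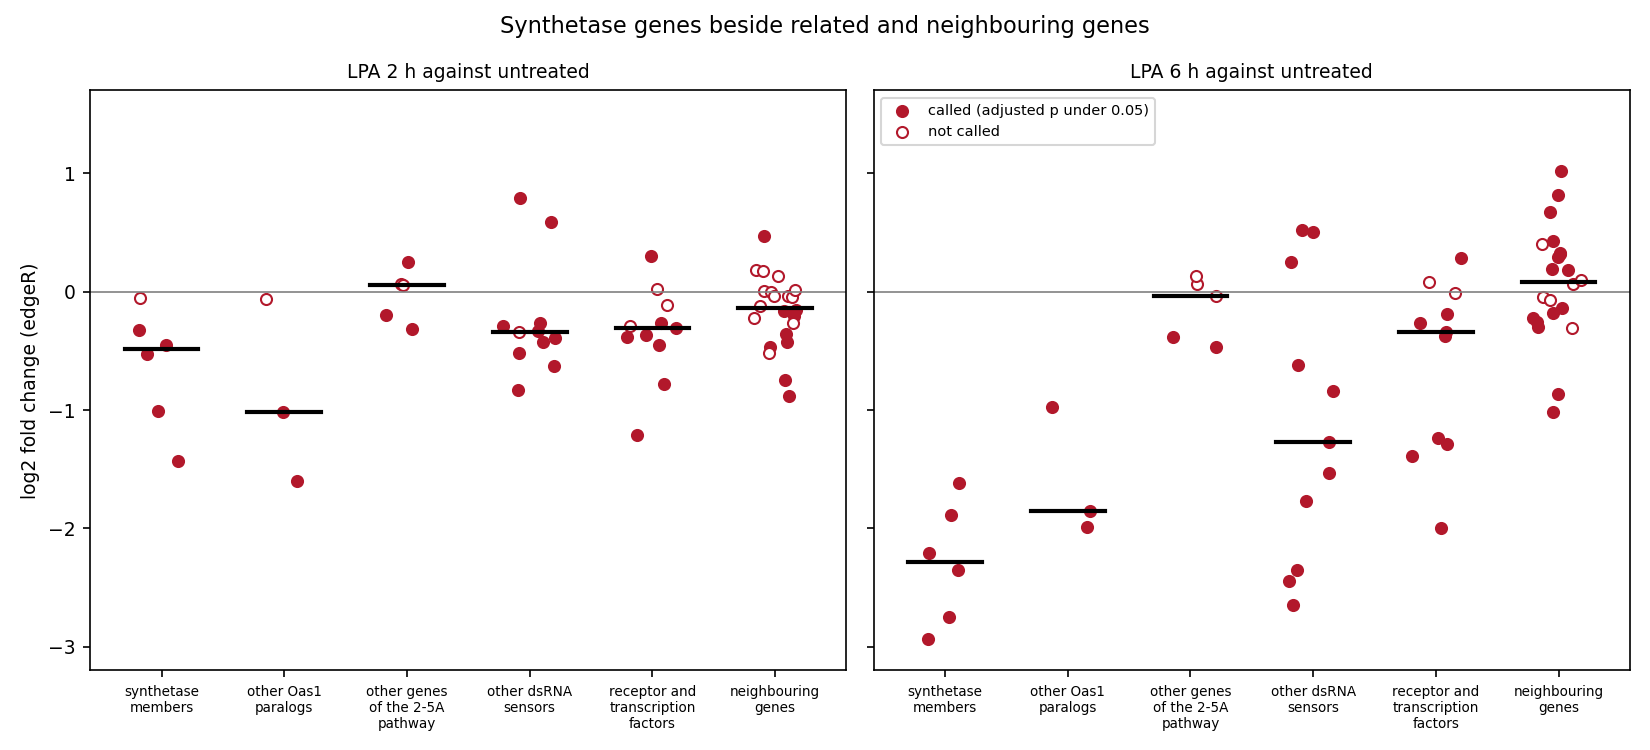
Log2 fold change (edgeR) against untreated cells at LPA 2 h and LPA 6 h for single genes (points, filled where called). Shown are the synthetases, the 3 other Oas1 copies tested and 5 other genes of the 2-5A pathway. Beside them are 11 sensor genes, 11 receptor and transcription factor genes and 22 neighbouring genes. Black bars are medians. At 6 h the median of the synthetases is -2.28, while those of the other 2-5A pathway genes and of the neighbours are -0.04 and 0.08.

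Correlations over the 9 libraries describe how alike the members' profiles were. The Pearson correlation of each member's log2 CPM with the mean of the 6, in which it is included, ran from 0.963 for Oasl1 to 0.999 for Oas1g. Between pairs it ran from 0.871 for Oas2 with Oasl1 to 0.998 for Oas1a with Oas3. Among 9794 other genes with a mean of at least 5 CPM, the 6 whose profile was most like the mean of the members were Isg15 (r = 0.9992), Rtp4 (0.9985), Xaf1 (0.9974), Ifi211 (0.9974), Phf11b (0.9974) and Scimp (0.997). These r describe libraries that share 3 groups and the same scaling. Isg15, a ubiquitin-like protein that interferon induces, averaged 46.45 CPM in untreated cells, 29.3 CPM at 2 h and 6.25 CPM at 6 h. Rtp4 fell most of the 6 at 6 h, by 11.9-fold (log2 -3.58 ± 0.201, adjusted p = 2.55e-06), and Scimp least, by 2.61-fold (-1.39 ± 0.082, adjusted p = 1.32e-07).

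For single members, the most alike gene was Dhx58 for Oas1a (r = 0.9995) and for Oas3 (0.9975), Isg15 for Oas1g (0.9989), Ccnd1 for Oas2 (0.9965), Eif5a for Oasl1 (0.9961) and Ms4a6b for Oasl2 (0.9978). The measure compares the shape of a profile and not its size. Ccnd1, which encodes cyclin D1, was lower at both times, with log2 changes of -1.16 ± 0.125 at 2 h and -2.47 ± 0.138 at 6 h. Eif5a, a translation factor, was lower at 6 h with a log2 change of -0.48 ± 0.051 (adjusted p = 8.9e-06), where Oasl1 had -1.62. By Spearman rank correlation Isg15 had a rho of 0.983 with the family mean, with 3 genes above it and others tied with it, and the other 5 genes most like the family mean each had at least 28 genes above them.

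The markers of cell types that could be in the cultures were set beside these changes. The 8 conventional dendritic cell markers summed to 5720 to 6620 CPM in untreated libraries, 6010 to 6620 CPM at 2 h and 5290 to 5770 CPM at 6 h. At 6 h 4 were lower and 1 higher. Most of the sum was Cd74, with means of 3597, 3645 and 3252 CPM in untreated, 2 h and 6 h cells. The 4 lower at 6 h were Dpp4 (log2 -0.82), Batf3 (-0.78), Itgax (-0.34) and H2-Ab1 (-0.23), and the 1 higher was Ccr7 (0.42). The 8 macrophage markers summed to 3750 to 3800 CPM in untreated libraries, 4040 to 4130 CPM at 2 h and 3990 to 4200 CPM at 6 h, with 5 lower and 3 higher at 6 h. Most of that sum was Csf1r, with means of 2251, 2523 and 2629 CPM in untreated, 2 h and 6 h cells. The 5 lower at 6 h were Fcgr1 (log2 -1.24), C1qa (-0.46), Adgre1 (-0.42), C1qc (-0.34) and C1qb (-0.25). The 3 higher were Mertk (0.73), Csf1r (0.22) and Cd68 (0.20). The 6 plasmacytoid dendritic cell markers summed to 33.2 to 35.5 CPM in untreated libraries, 40.5 to 47.6 CPM at 2 h and 35.5 to 39.5 CPM at 6 h, nearly all from Tcf4. The defining Siglech averaged 0.0221 CPM in untreated cells, 0.0171 CPM at 2 h and 0 at 6 h. Markers of B cells, T and NK cells and erythroid cells each summed to under 1 CPM in every library. Over all libraries, neutrophil markers summed to 4.55 to 7.29 CPM and those of mast cells and basophils to 7.54 to 10.9 CPM. Stromal and endothelial markers summed to 3.94 to 14.2 CPM. The upper end was untreated replicate 2 alone, with 4.93 CPM of Pecam1 and 7.86 CPM of Cdh5. Untreated replicates 1 and 3 held 0.74 and 0.86 CPM of Pecam1 and 2.18 and 2.19 CPM of Cdh5. The part of cell make-up in the fall of the synthetases was not tested.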

How the data were processed

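RNA-seq was done on total RNA of 9 BMDC libraries (3 per group). Per the labels' protocols, RNA was purified with a column kit and libraries were made with a TruSeq protocol that does not keep the strand. The authors deposited estimated counts per gene, as whole numbers with no depth scaling. The submitters' processing notes name RSEM 1.2.3, mm10 as the build, and DESeq2. Each row lists transcript IDs, which were matched here to GENCODE genes of GRCm38: 37776 of 38887 rows (98.46% of counts) matched 1 gene, 176 several and 935 none.

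The whole table was fitted once with edgeR 4.0.16 (R 4.3.3): TMM scaling, filterByExpr with a minimum count of 10, a mean per group over all 9 libraries and the robust quasi-likelihood test, adjusted by Benjamini-Hochberg over 14363 genes. A gene was called at an adjusted p under 0.05, and its groups did not overlap where every library of one lay beyond every library of the other. Levels per kilobase used the union of exons. The fit was also run on simulated counts drawn with its own estimates of spread. They held far fewer changed genes than were called here, so that run cannot show how the error rate holds in these data. Profiles were compared on log2 CPM with a prior count of 0.5. Named genes were the members, the other Oas1 copies and 2-5A pathway genes, the 3 genes with the smallest p at 6 h of the sensor and of the receptor lists plus Ifnar1, Irf7 and Irf9, the nearest tested neighbour at each cluster end, and the genes most like the family or a member. Some pathway genes are not reported here, and list counts leave them out. The members and all lists were chosen with earlier results of these data known. The exact permutation tests of ratios were added to a planned description.

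Depth was 29628817 to 84596899 counts. The members rested on 127 (Oas2, LPA 6 h replicate 1) to 14523 counts (Oasl2, untreated replicate 2) per library. Replicate numbers come from the labels, which do not say what they mark. Same-numbered untreated and 6 h libraries deviated together (correlations of 0.147, 0.126 and 0.144 over genes, against at most -0.0131 between different numbers). These numbers were therefore taken to pair them, from the data and not from the design. The main fit and the permutation tests did not use this pairing. It entered only through the replicate block among the alternatives. Alternatives covered scaling, filters, DESeq2 1.42.0, limma-voom (limma 3.58.1), thinning to equal depth, a replicate block, fits on 6 libraries and leaving out each library.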

Additional observations from a re-analysis of the deposited data

Results flagged for a closer look

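For 28 of the 35 named genes, the change at 6 h differed from the change at 2 h, read from the test of 6 h against 2 h itself, which is the difference of the 2 changes because both use the same untreated libraries (edgeR, adjusted p under 0.05). Of all 14363 genes tested, 6991 were called in that comparison, and many named genes were chosen for a small p at 6 h or for likeness to the family. Among the synthetases the log2 difference was -1.57 for Oas1a, -1.68 for Oas1g, -1.51 for Oas2, -1.91 for Oas3, -1.56 for Oasl1 and -1.74 for Oasl2. The other Oas1 copies gave -0.83 for Oas1b and -0.91 for Oas1c.

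In the rest of the 2-5A pathway the values were -0.18 for Abce1 and -0.15 for Cnp. Sensor genes gave -1.44 for Dhx58, -0.84 for Eif2ak2 and -0.91 for Ifih1. Genes of the interferon pathway gave -0.79 for Usp18, -0.46 for Stat2, -0.92 for Irf9 and -1.10 for Irf7. Of the neighbours, Rph3a had 1.06 and 2210016L21Rik 0.46, both higher at 6 h than at 2 h. Without LPA 2 h replicate 2 the value of Rph3a was 1.64 (adjusted p = 1.73e-04), and Akap7, of the 2-5A pathway, was also called lower at 6 h than at 2 h (-0.25, adjusted p = 0.033). Genes with a like profile gave -1.30 for Ccnd1, -0.47 for Eif5a, -2.06 for Ifi211, -2.21 for Isg15, -1.05 for Ms4a6b, -1.12 for Phf11b, -2.68 for Rtp4, -1.04 for Scimp and -1.61 for Xaf1.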

How the results depend on the processing

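At 6 h against untreated cells and at 6 h against 2 h, all 116 member values over the alternatives kept their direction and their call in each comparison. At 2 h against untreated cells 106 of 116 did, 8 lost the call and 2 reversed. Oas3 lost it with no filter on low counts (-0.4388, adjusted p = 0.101) and in a fit on only the 6 libraries compared (-0.438, adjusted p = 0.0515), in both cases with 4 members called. Leaving out 1 library at a time gave -0.5689 to -0.2912 for Oas3, -0.3923 to -0.205 for Oas1a and -0.2113 to 0.04903 for Oasl1, and 3 to 5 members called, with 3 without untreated replicate 2. Oasl1 turned positive without untreated replicate 2 (0.04229, adjusted p = 0.859) and without LPA 2 h replicate 2 (0.04903, adjusted p = 0.814). The cause of these losses was not tested. Genes called ranged from 4352 to 6135 at 2 h, 6226 to 8044 at 6 h and 5767 to 7588 for 6 h against 2 h, around 5525, 7472 and 6991. A replicate block changed no member's call: Oas3 had -0.4642 at 2 h (adjusted p = 0.0374) and Oasl1 -0.06162. Numbers were taken to pair libraries only where all same-numbered correlations passed a planned cut of 0.1. Between 2 h and untreated cells these correlations were 0.0983 to 0.211, beside at most 0.00859 between different numbers, so the cut was narrowly missed. Between 6 h and 2 h they were 0.0243 to 0.126, beside at most 0.0843. The numbers were therefore not taken to pair libraries in these 2 comparisons. Other transcript lengths moved levels per kilobase, but the order changed only for Oasl2 with Oas1a. Since each member has 1 row, summing rows of a symbol gave no other value. Without LPA 2 h replicate 2, 5 of the 6 genes most like the family stayed among the 6, and by Spearman correlation, where ties fill the sixth place, 0 were listed. Counts called at 2 h against untreated cells in the other lists were the same without LPA 2 h replicate 2, an alternative chosen after seeing the data, except for 9 lower neighbours in place of 8. Among called genes named here, Oas1h rested on 2 to 24 counts per library.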
